A study of Mus musculus with 14 samples.

Results

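Cytosolic heat shock proteins and HSP90 co-chaperones were examined as a set of 10 genes: Hspa1a, Hspa1b, Hspa8, Hsph1, Dnajb1, Bag3, Hspb1, Hsp90aa1, Ahsa1 and Chordc1. A probe belonged to the set when its RefSeq transcript accession, without the version, belonged to one of these genes. By this rule 9 of the 10 genes had a probe, 12 probes in all, and Hspa1b had none. All 9 entered the tests, among 14453 genes tested and 20887 genes named on the array.

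Arrays profiled RNA of the medial prefrontal cortex (mPFC, a cortical area that takes part in social and emotional control) from wild-type C57BL/6 mice, with 1 mouse per array. Susceptible (n = 6) and resilient (n = 3) mice had both gone through repeated social defeat stress, in which an aggressor attacks the mouse in session after session, and the labels separate them by behavioural phenotype. Naive mice (n = 5) had been transferred between cages. All mice were perfused 4 h after their last session, and RNA came from a 1.5 mm tissue punch. The design mentions independent experiments with different mice, and which mouse belongs to which experiment is not given in the sources used here.

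Heat shock proteins keep other proteins folded. HSP70 proteins bind exposed stretches of client proteins in a cycle driven by ATP, in which J-domain proteins deliver clients and nucleotide exchange factors release them. HSP90 acts later on clients such as kinases and steroid receptors and is steered by co-chaperones, and many of these genes are switched on by heat shock factor 1 when misfolded protein accumulates.

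Values are log2 signals minus the 75th percentile of the same array, so that 0 marks the 75th percentile, and levels of different probes are not comparable. Of the 3 slides that carried the 14 arrays, slides 1 and 2 were scanned on the first of 2 days and had mice from each group. Slide 3 was scanned on the second day and had only susceptible mice 5 and 6 and naive mice 4 and 5. On every slide the arrays of defeated mice lay in row 2 and those of naive mice in row 1, so row and defeat cannot be told apart. Array brightness, the log2 signal at the 75th percentile, averaged 8.09 ± 0.59 in susceptible, 7.91 ± 0.12 in resilient and 7.70 ± 0.68 in naive mice (SD, n = 6, 3 and 5). On the first scan day brightness was 7.56 to 8.04 in the 7 defeated mice and 7.14 to 7.25 in the 3 naive mice, without overlap. The share of spots well above background was 48.0% to 65.4% per array, saturation was seen at no spot, and precision is limited by how many arrays there were. All 5 neuronal markers (Snap25, Syt1, Rbfox3, Tubb3 and Stmn2) were above background on all 14 arrays. In tissue punches, fewer cells of a type and less RNA per cell cannot be told apart.

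Heat shock factor 1 binds runs of the unit GAA and its reverse complement TTC, spaced by any pair of bases. RefSeq promoter windows of build GRCm38.p6, from 250 bases before to 50 bases after a gene's start, were available for 8 of the 10 genes. A pair of adjoining units (GAANNTTC or TTCNNGAA, read on either strand since both forms are their own reverse complements) stood in the windows of 6 of these 8 genes and in 15.1% of all 32851 windows. A run of 3 adjoining units (either pair extended by its next unit after any pair of bases, so that it contains both shorter forms) stood in the windows of 2 genes, Chordc1 and Hsph1, and in 0.603% of all windows. A run of 5 adjoining units stood in 1 of the 32851 windows, that of Chordc1. Stretches holding the units are shown for 5 genes because these genes fall on both sides of the pattern described in the results. Each is given in the direction of the gene, and capitals mark the units found.
Chordc1, chr9:18292207-18292285, plus strand: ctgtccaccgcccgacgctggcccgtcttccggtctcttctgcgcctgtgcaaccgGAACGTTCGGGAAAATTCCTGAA
Hsph1, chr5:149636288-149636375, minus strand: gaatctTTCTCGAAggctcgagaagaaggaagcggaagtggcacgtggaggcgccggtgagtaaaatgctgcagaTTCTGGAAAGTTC
Hspa1a, chr17:34972207-34972286, minus strand: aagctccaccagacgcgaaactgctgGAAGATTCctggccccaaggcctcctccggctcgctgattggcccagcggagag
Hspb1, chr5:135887779-135887848, plus strand: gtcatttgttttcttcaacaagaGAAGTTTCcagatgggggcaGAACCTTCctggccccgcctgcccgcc
Bag3, chr7:128523604-128523632, plus strand: caagttctctggatgggaccaGAAGTTTC

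The Chordc1 run began 4 bases before the start, and a further pair of units 33 bases after the start is not shown. The Hsph1 pair began 54 bases before the start and its run of 3 units began 15 bases after it. From a second listed start of Hsph1 they began 33 bases before and 36 bases after. In Hspa1a the pair began 104 bases before the start, in Hspb1 the pairs began 117 and 97 bases before it, and in Bag3 the pair began 42 bases after it. The windows of Hspa1a and of Hspa1b, the near-identical second copy of inducible HSP70, differed at 4 of 300 bases, and the pair lay at the same place in both. No such pair was found in the windows of Ahsa1 and Dnajb1. A match is a description of the letters and shows no binding.

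In susceptible mice the HSP90 co-chaperone gene Chordc1 was 1.60-fold higher than in naive mice, and it was the only one of the 9 genes past the threshold, an adjusted p under 0.05 by limma with Benjamini-Hochberg adjustment over all genes tested. By the same rule 2.28% of all genes tested were called, and 1.45% were called higher. None of the 9 genes was called lower. Differences were above 0 for 6 of the 9 genes and for 53.8% of all genes, and the median difference was 0.31 over the 9 genes and 0.02 over all genes tested. Once slide was added as a block, 4 of the 9 genes were higher (Chordc1, Hsph1, Hspa1a and Ahsa1), against 9.03% of all genes.

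**Figure D1:**
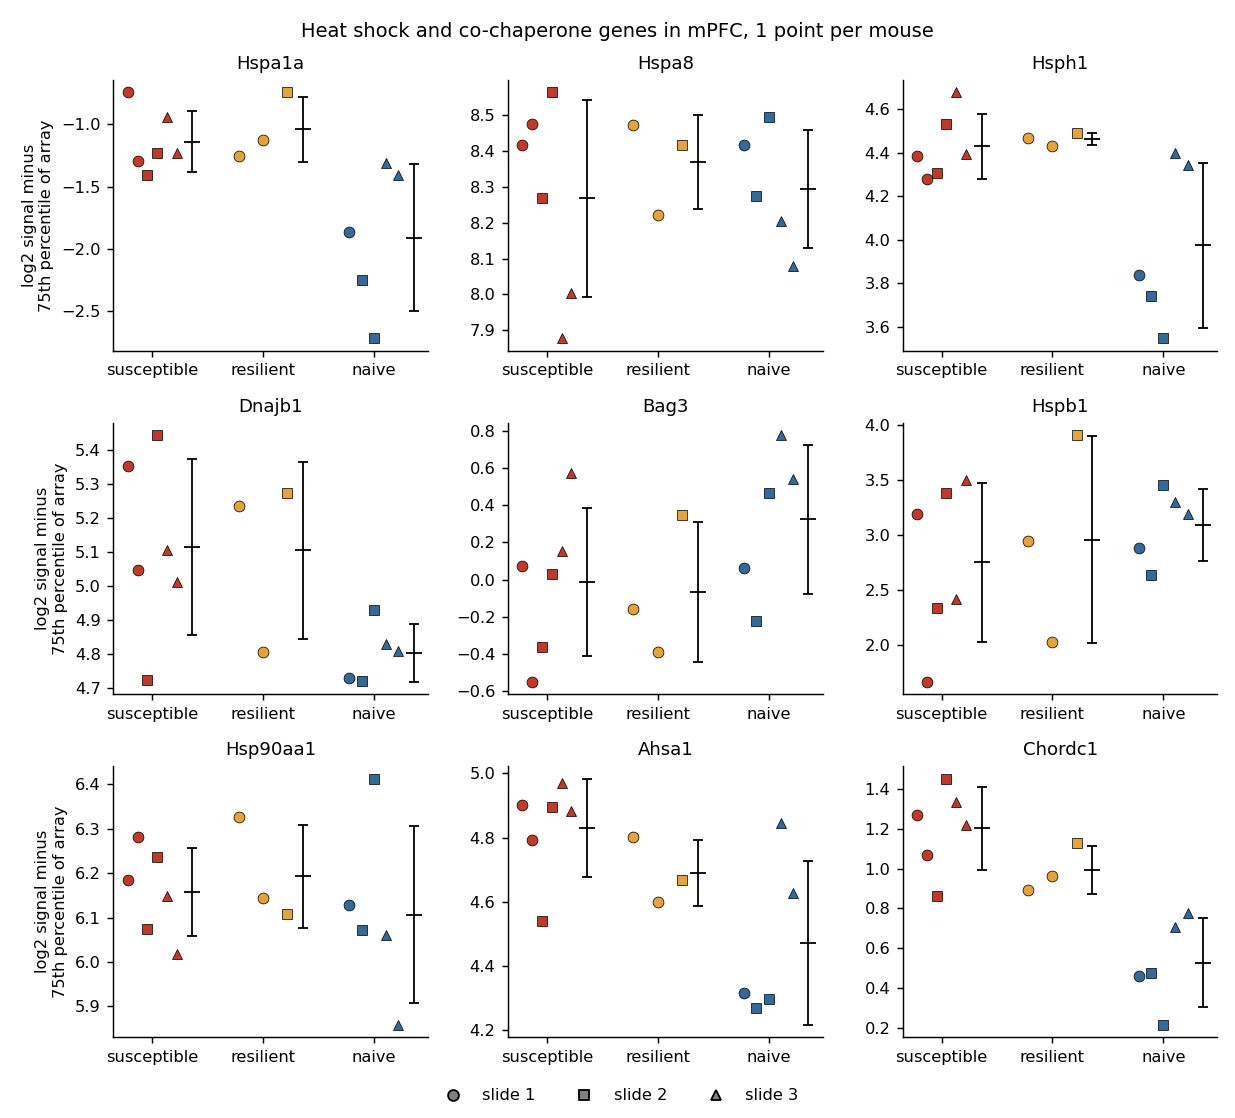
Log2 signal minus the 75th percentile of the array (y axis) for the 9 genes, 1 point per mouse, by group on the x axis. Shapes mark the slide, and bars give the mean and SD of each group. For Chordc1 the 6 susceptible and 3 resilient mice all lay above the 5 naive mice, and for Hspa1a, Hsph1 and Ahsa1 the naive mice of slide 3 lay above the other naive mice.

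Chordc1 encodes a protein with paired CHORD zinc-binding domains (CHP1, also called morgana) that binds HSP90 and is itself induced by heat shock. Its log2 signal was 0.86 at the lowest, 1.25 at the median and 1.45 at the highest in susceptible mice. In resilient mice it was 0.89, 0.96 and 1.13. In naive mice it was 0.46, 0.48, 0.21, 0.71 and 0.77. Each of the 9 defeated mice was above each of the 5 naive mice.

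Susceptible mice exceeded naive mice by 0.67 ± 0.13 on the log2 scale for Chordc1 (SE; 95% interval 0.41 to 0.94; adjusted p = 0.0265, limma). With slide as a block the difference was 0.69 (adjusted p = 0.0072), and within slides 1, 2 and 3 it was 0.71, 0.81 and 0.54, where slide 1 held a single naive mouse. Genes whose susceptible mice all lay above all naive mice made up 2.33% of the genes tested, and Chordc1 was the only such member. The call held in 8 of 14 fits that left out 1 mouse. It was lost without naive mouse 2 or 3 or susceptible mouse 1, 2, 4 or 5, where the adjusted p (limma) reached 0.063, and with slide as a block it held in 14 of 14 such fits. Array brightness correlated with Chordc1 over the 14 mice at r = 0.55 and rho = 0.45 (permutation test, adjusted p = 0.20 and 0.30 over 90 relations). This r was 0.74 on scan day 1 alone, 0.57 among deviations from group means and 0.22 among deviations from group and slide means. With brightness as a covariate the difference was 0.59 (adjusted p = 0.0145, limma). The call was lost with slide and brightness together (0.59, adjusted p = 0.53), with the array median subtracted (0.68, adjusted p = 0.0875), with no filter on dim probes (adjusted p = 0.0699) and in a fit of only these groups (adjusted p = 0.0527, limma).

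Among marker lists of other cells, the 3 choroid plexus markers (Ttr, Kl and Folr1) had r = -0.61 and rho = -0.71 with Chordc1 (adjusted p = 0.12 and 0.0701, permutation). Their summed signal, relative to a signal of 1 at the 75th percentile, ran from 0.382 to 0.569 in susceptible, 0.401 to 0.629 in resilient and 0.449 to 0.805 in naive mice. For the 5 tested red blood cell markers (globin genes), which ran from 6.79 to 69.3 in susceptible, 8.37 to 50.3 in resilient and 4.06 to 16.5 in naive mice, r and rho were both 0.56 (adjusted p = 0.20 and 0.16, permutation). Both sums overlapped between groups, and none of these 8 markers passed the test without a block. The 3 choroid plexus markers did not move together. Between susceptible and naive mice their differences ran from -1.72 to 0.34, and 1 was above 0. Between resilient and naive mice 2 of the 3 were above 0. All 5 red blood cell markers had differences above 0 in both comparisons. When slide was a block, 1 choroid plexus marker was lower and 1 red blood cell marker higher in susceptible than in naive mice. Of all genes, 6.1% were lower and 9.03% higher in that fit. Among deviations from group means, r with Chordc1 was -0.16 for the choroid plexus sum and 0.12 for the red blood cell sum. The 6 astrocyte markers had r = -0.53 with Chordc1 over all mice (adjusted p = 0.25, permutation) and -0.73 on scan day 1. For the 5 neuronal markers r was 0.17 (adjusted p = 0.69, permutation) and 0.75. From group means, deviations gave 0.24 for astrocyte and -0.25 for neuronal markers. Astrocyte sums were 77.6 to 93.5 in susceptible, 74.9 to 86.4 in resilient and 87.0 to 106 in naive mice. Neuronal sums were 297 to 410, 393 to 410 and 332 to 383. Resilient and naive mice did not overlap on either. The part of any of these markers in the Chordc1 difference was not tested.

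Ahsa1 encodes AHA1, which stimulates the ATPase of HSP90. Its log2 signal was 4.54 at the lowest, 4.89 at the median and 4.97 at the highest in susceptible mice. Resilient mice had 4.80, 4.60 and 4.67, and naive mice had 4.32, 4.27, 4.30, 4.85 and 4.63. The naive mice of slides 1 and 2 lay below every defeated mouse, whereas the naive mice of slide 3 lay among them. The difference between susceptible and naive mice was 0.36 ± 0.12 (SE; adjusted p = 0.104, limma), and with slide as a block it was 0.37 (adjusted p = 0.0244), past the threshold. The summed choroid plexus markers, whose ranges and mixed signs are given above, had r = -0.67 and rho = -0.78 with Ahsa1 (adjusted p = 0.0640 and 0.0256, permutation). Their part in the difference was not tested.

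Hsp90aa1 encodes the stress-inducible form of cytosolic HSP90 itself. Its log2 signal was 6.02 at the lowest, 6.17 at the median and 6.28 at the highest in susceptible mice. Resilient mice had 6.33, 6.14 and 6.11, and naive mice had 6.13, 6.07, 6.41, 6.06 and 5.86. The groups overlapped throughout. Susceptible mice differed from naive mice by 0.05 ± 0.10 (SE; 95% interval -0.17 to 0.27; adjusted p = 0.80, limma), and the sign turned within slide 2 (-0.09).

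**Figure D2:**
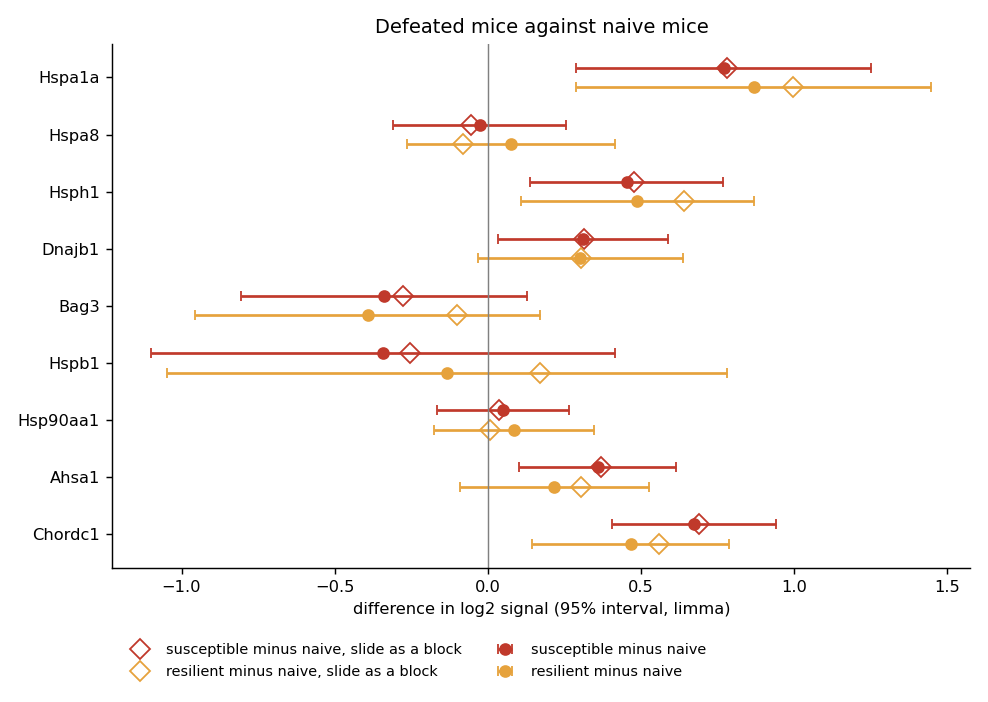
Differences in log2 signal from naive mice (x axis) for each gene (y axis), susceptible mice in red and resilient mice in orange. Filled points give the fit without a block with its 95% interval, and open diamonds give the fit with slide as a block. The intervals of Hspa1a, Hsph1 and Chordc1 lie above 0 in both comparisons, and those of Hspa8, Hsp90aa1, Bag3 and Hspb1 span 0.

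Hspa1a encodes the inducible cytosolic HSP70. Its log2 signal was -1.40 at the lowest, -1.23 at the median and -0.74 at the highest in susceptible mice. Resilient mice had -1.25, -1.13 and -0.74. Naive mice had -1.87, -2.25, -2.72, -1.31 and -1.40. Both naive mice of slide 3 lay close to the defeated mice, and 5 of 6 susceptible mice lay above every naive mouse.

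The difference of Hspa1a between susceptible and naive mice was 0.77 ± 0.23 (SE; adjusted p = 0.0745, limma), and with slide as a block it was 0.78 (adjusted p = 0.0230), past the threshold. Within slides 1, 2 and 3 it was 0.85, 1.17 and 0.27. Without naive mouse 5 the fit without a block also passed (adjusted p = 0.0494, limma). Brightness of the array had r = 0.63 and rho = 0.49 with Hspa1a (adjusted p = 0.0888 and 0.24, permutation over 90 relations), and r was 0.88 on scan day 1 alone. With brightness as a covariate the difference was 0.59 (adjusted p = 0.0603), and with slide and brightness together 0.41 (adjusted p = 0.74, limma). Hspa1a was named by accession alone, and how far its probe also takes up Hspa1b transcripts was not tested.

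Hsph1 encodes HSP110, a large relative of HSP70 that acts as its nucleotide exchange factor. By its brighter probe, susceptible mice had a lowest value of 4.28, a median of 4.39 and a highest value of 4.68. Resilient mice had 4.47, 4.43 and 4.49. Naive mice had 3.84, 3.74, 3.55, 4.40 and 4.34. Again only the naive mice of slides 1 and 2 lay apart from the defeated mice, and those of slide 3 lay among them.

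Susceptible and naive mice differed for Hsph1 by 0.46 ± 0.15 (SE; adjusted p = 0.0972, limma) and by 0.48 with slide as a block (adjusted p = 0.0177), past the threshold. The dimmer probe of Hsph1, fitted among all probes, gave 0.40. Brightness of the array correlated with Hsph1 at r = 0.75 (rho = 0.58) and with Ahsa1 at r = 0.75 (rho = 0.67), each with an adjusted p of 0.0205 for r by permutation over 90 relations. On scan day 1 alone, where brightness separated defeated from naive mice, these r were 0.87 and 0.82, and among deviations from group and slide means 0.43 and 0.32. With brightness as a covariate Hsph1 differed by 0.31 (adjusted p = 0.0668) and Ahsa1 by 0.26 (adjusted p = 0.0853, limma). With slide and brightness together Hsph1 differed by 0.29 and Ahsa1 by 0.26 (adjusted p = 0.68 each, limma), and no gene of the 14453 passed.

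Dnajb1 encodes an HSP40, a J-domain protein that delivers clients to HSP70. Its log2 signal was 4.72 at the lowest, 5.08 at the median and 5.44 at the highest in susceptible mice. Resilient mice had 5.24, 4.80 and 5.27. Naive mice were tightly grouped at 4.73, 4.72, 4.93, 4.83 and 4.81. Susceptible mouse 3 and resilient mouse 2 lay within the naive range, and the other 7 defeated mice lay above it. The difference of 0.31 ± 0.13 between susceptible and naive mice (SE; adjusted p = 0.171, limma) did not pass, nor did it with slide as a block (0.31, adjusted p = 0.116).

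Hspa8 encodes the constitutive cytosolic HSP70 (HSC70), which also strips clathrin from vesicles in neurons, and its 3 probes disagreed. The brightest probe (A_55_P2080603), which stands for the gene in the counts, had 7.88 at the lowest, 8.34 at the median and 8.56 at the highest in susceptible mice, 8.47, 8.22 and 8.42 in resilient mice and 8.42, 8.28, 8.50, 8.21 and 8.08 in naive mice. The groups overlapped throughout, and the difference of -0.03 ± 0.13 between susceptible and naive mice (SE; adjusted p = 0.92, limma) changed sign with the scaling, to 0.32 under quantile normalisation and 0.30 after normexp background correction. Brightness of the array correlated with this probe at r = -0.77 (rho = -0.71; adjusted p = 0.0167 and 0.0701 by permutation over 90 relations).

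The other two Hspa8 probes had higher means in susceptible mice. Probe A_55_P2069721 had 6.41, 6.61 and 6.82 as its lowest, median and highest values in susceptible mice, 6.68, 6.54 and 6.59 in resilient mice and 6.33, 6.07, 6.15, 6.35 and 6.39 in naive mice. All 9 defeated mice exceeded all 5 naive mice on it. Among genes tested, 2.33% had all susceptible mice and 7.94% all resilient mice above all naive mice, and the share of probes was not counted. In a fit of each of 29813 probes on its own, added after the data were seen, probe A_55_P2069721 differed by 0.34 between susceptible and naive mice (adjusted p = 0.0897, limma). The difference was 0.33 with slide as a block (adjusted p = 0.0419, limma). Probe A_52_P12877 differed by 0.48 (adjusted p = 0.166; 0.50 with slide as a block, adjusted p = 0.0450), and the brightest probe by -0.03 (adjusted p = 0.94). Which probe reflects the transcript was not tested.

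**Figure D3:**
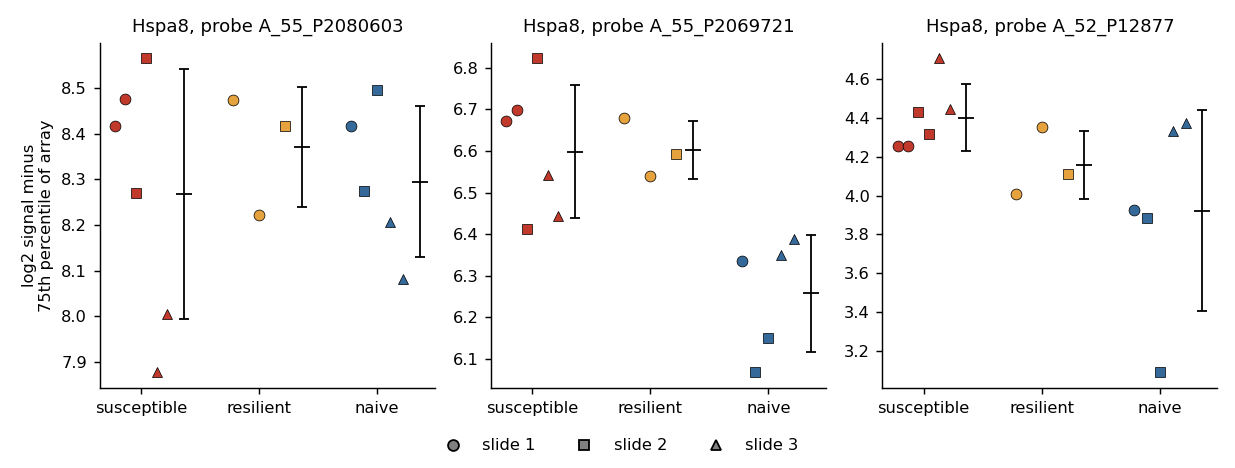
Log2 signal minus the 75th percentile of the array (y axis) of the 3 Hspa8 probes, 1 point per mouse, by group on the x axis, with the mean and SD of each group as bars and the slide as the shape. The groups overlap on probe A_55_P2080603, whereas all defeated mice lie above all naive mice on probe A_55_P2069721.

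Bag3 encodes a nucleotide exchange factor that links HSP70 to small heat shock proteins and to selective autophagy. Its log2 signal was -0.55 at the lowest, 0.05 at the median and 0.58 at the highest in susceptible mice. Resilient mice had -0.16, -0.39 and 0.35, and naive mice had 0.06, -0.22, 0.47, 0.78 and 0.54. The groups overlapped. Susceptible mice differed from naive mice by -0.34 ± 0.22 (SE; adjusted p = 0.37, limma).

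Hspb1 encodes a small heat shock protein (HSP25 in mice) that holds unfolded proteins and is abundant in vascular smooth muscle. Susceptible mice had 1.67 at the lowest, 2.81 at the median and 3.50 at the highest. Resilient mice had 2.95, 2.03 and 3.91, and naive mice had 2.88, 2.64, 3.46, 3.30 and 3.19. The groups overlapped, and the 14 mice covered a range of 2.24 log2 units. The difference between susceptible and naive mice was -0.34 ± 0.35 (SE; adjusted p = 0.59, limma).

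In resilient mice none of the 9 genes passed against naive mice by limma, where 0.138% of all genes tested were called and 0.0761% were called higher, and 3 of the 9 had an unadjusted p under 0.05, as did 19.6% of all genes. Hspa1a was higher by 0.87 ± 0.27 (SE; adjusted p = 0.122), Hsph1 by 0.49 ± 0.18 (adjusted p = 0.157) and Chordc1 by 0.47 ± 0.15 (adjusted p = 0.128). In these 3 genes each resilient mouse lay above each naive mouse, a pattern that 7.94% of all genes shared. With slide as a block Hspa1a (1.00, adjusted p = 0.0463) and Hsph1 (0.64, adjusted p = 0.0355) passed, against 2.41% of all genes, and Chordc1 did not (0.56, adjusted p = 0.0513). Differences were above 0 for 7 of the 9 genes and for 53.1% of all genes, with medians of 0.22 and 0.02.

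The call of Hspa1a with slide as a block held in 4 of 14 fits that left out 1 mouse, and that of Hsph1 in 7 of 14. Dnajb1 differed between resilient and naive mice by 0.30 ± 0.16 (SE; adjusted p = 0.30, limma), Ahsa1 by 0.22 ± 0.14 (adjusted p = 0.42), Bag3 by -0.39 ± 0.26 (adjusted p = 0.43) and Hspb1 by -0.13 ± 0.43 (adjusted p = 0.90). Both comparisons with naive mice share the same 5 naive mice.

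Susceptible and resilient mice were set against each other to ask whether these genes separate the outcomes of defeat. None of the 9 genes passed, nor did any of the 14453 genes (0%; 104 genes had an unadjusted p under 0.05 by limma, and none of the 9 did). The 9 differences ran between -0.21 for Hspb1 (95% interval -1.09 to 0.68) and 0.21 for Chordc1 (95% interval -0.11 to 0.52). For Hspa1a the difference was -0.10 (95% interval -0.66 to 0.46), and for Hsph1 it was -0.03 (95% interval -0.40 to 0.33). Differences were above 0 for 4 of the 9 genes and for 54% of all genes.

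Across the 14 mice the genes fell into sets that varied together. Of the 36 pairs, 10 passed an adjusted p of 0.05 for Pearson's r by permutation with 100000 resamples, 11 passed for Spearman's rho, and all 10 pairs were positive. Hspa1a, Hsph1, Ahsa1 and Chordc1 made up 6 of them. These genes had r = 0.63, 0.75, 0.75 and 0.55 with array brightness. Among deviations from group means these r were 0.66, 0.82, 0.77 and 0.57, and from group and slide means 0.42, 0.43, 0.32 and 0.22. On scan day 1 their r was 0.80, 0.90, 0.73 and 0.75 with neuronal markers and -0.77, -0.80, -0.83 and -0.73 with astrocyte markers. Over all 14 mice these r were -0.03 to 0.25 and -0.53 to -0.39. The part of brightness or of these markers in their co-variation was not tested, nor was the share of pairs of other genes that would pass. Hspa1a and Hsph1 had r = 0.93 and rho = 0.79 (adjusted p = 0.000840 and 0.0117, permutation), and r was 0.75 without the 2 mice farthest from the median of Hspa1a and 0.79 among deviations from group and slide means. Hsph1 and Chordc1 had r = 0.87 and rho = 0.75 (adjusted p = 0.000360 and 0.0117, permutation, the first resting on the smallest p the resamples can give), with 0.74 and 0.71 under the same changes.

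Hsph1 and Ahsa1 had r = 0.88, Ahsa1 and Chordc1 0.87, Hspa1a and Chordc1 0.86, and Hspa1a and Ahsa1 0.81; rho was 0.74, 0.83, 0.88 and 0.76, and the adjusted p (permutation) of r was at most 0.00264. Among deviations from group and slide means r was 0.50 for Hspa1a and Ahsa1, where the pair no longer passed (adjusted p = 0.159, permutation), and 0.64 to 0.72 for the other three, which passed (adjusted p up to 0.0445, permutation). Dnajb1 joined through Chordc1 (r = 0.71, rho = 0.75, adjusted p = 0.0221 and 0.0129, permutation) and Ahsa1 (r = 0.66, rho = 0.77, adjusted p = 0.0401 and 0.0117). Among deviations from group and slide means Dnajb1 had r = 0.80 with Ahsa1, 0.64 with Chordc1, 0.73 with Hspb1, 0.72 with Hspa8 and 0.67 with Bag3, with adjusted p between 0.00729 and 0.0445 (permutation), so that it passed with members of each set. An r over all 14 mice includes the difference between defeated and naive mice. Among deviations from group means 11 of 36 pairs passed. Permutations of deviations, of either kind, shuffled the 14 values as if they were free, although fitted means had been removed. Their p-values are therefore too small, and which of these pairs would pass otherwise was not tested. Within the 10 mice of the first scan day, 8 of 36 pairs passed.

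Bag3 and Hspb1 varied with each other (r = 0.80, rho = 0.77, adjusted p = 0.00381 and 0.0117, permutation) and had r between -0.11 and 0.15 with Hspa1a, Hsph1, Ahsa1 and Chordc1 over all 14 mice, a range that includes the difference between groups. Among deviations from group means these 8 values were 0.17 to 0.64, with Bag3 at 0.45, 0.50, 0.64 and 0.52, and among deviations from group and slide means they were -0.02 to 0.46 and none passed. In the same deviations the r of Bag3 and Hspb1 was 0.94. The remaining pair past the threshold, Hspa8 and Hsp90aa1 (r = 0.65, rho = 0.76, adjusted p = 0.0401 and 0.0117, permutation), had r = 0.41 among such deviations. The promoter windows of Hspa1a, Hsph1 and Chordc1 and those of Bag3 and Hspb1 all hold the unit pair printed above, and that of Ahsa1 does not.

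**Figure D4:**
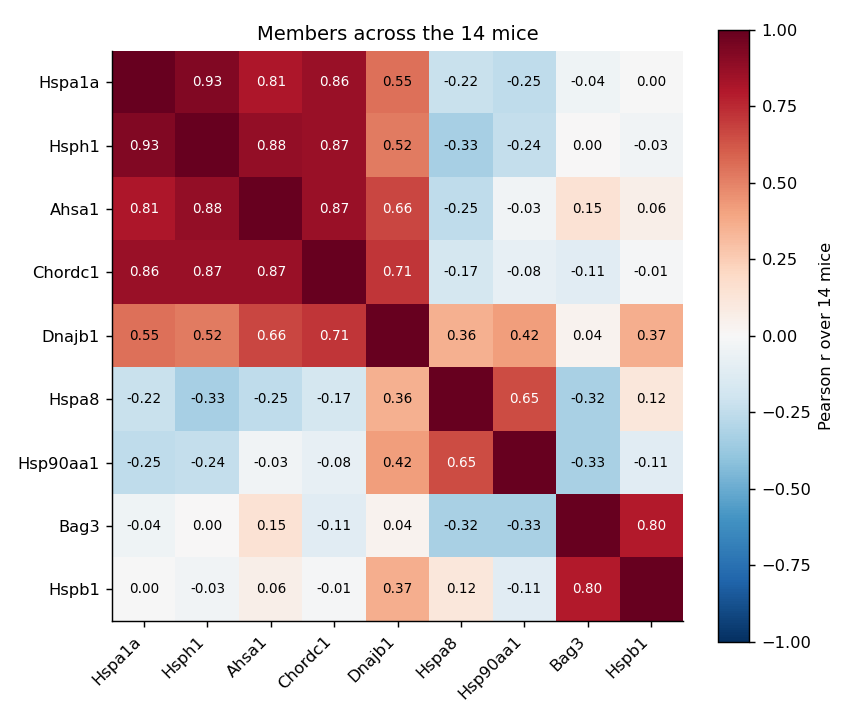
Pearson's r over the 14 mice for each pair of the 9 genes, written in each square and given by its colour, from -1 (blue) to 1 (red). Hspa1a, Hsph1, Ahsa1 and Chordc1 form a block with r between 0.81 and 0.93, and Bag3 and Hspb1 form a second one with r = 0.80.

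Bag3 and Hspb1 also varied with markers of several cell types of the vessel wall, the meninges and beyond. The summed signal of the tested pericyte and smooth muscle markers (4 of 6: Pdgfrb, Rgs5, Acta2 and Tagln, with Myh11 and Kcnj8 not tested) correlated with Bag3 at r = 0.90 and rho = 0.87 and with Hspb1 at r = 0.87 and rho = 0.88. With the 6 meningeal fibroblast markers r was 0.89 (rho = 0.83) for Bag3 and 0.88 (rho = 0.81) for Hspb1. Each r of these 4 relations had an adjusted p of 0.00112 by permutation over 90 relations, which were chosen after the data were seen. Endothelial markers passed as well by r, with Bag3 (r = 0.74, rho = 0.66, adjusted p = 0.0240 and 0.0831, permutation) and with Hspb1 (r = 0.78, rho = 0.70, adjusted p = 0.0167 and 0.0736), and so did microglial markers with Bag3 (r = 0.77, rho = 0.85, adjusted p = 0.0160 and 0.00600). The r with pericyte and smooth muscle markers was 0.95 for Bag3 and 0.87 for Hspb1 within the first scan day, and 0.92 and 0.90 among deviations from group and slide means.

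Relative to a signal of 1 at the 75th percentile, the summed pericyte and smooth muscle markers ran from 3.99 to 17.4 in susceptible, 5.04 to 14.6 in resilient and 8.79 to 25.6 in naive mice. The meningeal markers ran from 5.24 to 20.9 in susceptible, 6.46 to 20.1 in resilient and 12.8 to 28.0 in naive mice. All 4 tested pericyte markers and all 6 meningeal markers had differences below 0 between susceptible and naive mice, and none of these 10 passed. Of the 6 endothelial markers 1 had a difference above 0, and 1 was called lower (adjusted p = 0.0435, limma), as were 120 of all 14453 genes. When slide was a block 3 of the 6 were lower, against 6.1% of all genes. Of the 5 microglial markers 2 had differences above 0, and none passed. Chordc1 had r = -0.33 and Hspa1a r = -0.32 with the pericyte and smooth muscle markers (adjusted p = 0.45 each, permutation). The part of these cells in the Bag3 and Hspb1 values was not tested.

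**Figure D5:**
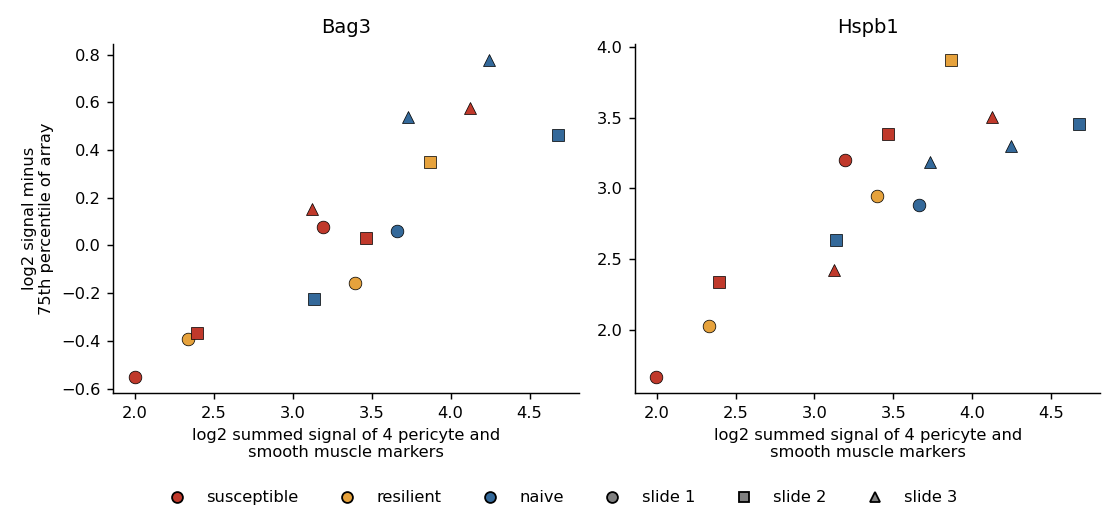
Log2 signal minus the 75th percentile of the array (y axis) of Bag3 (left) and Hspb1 (right) against the log2 summed signal of 4 pericyte and smooth muscle markers (x axis), 1 point per mouse, with the group as colour and the slide as shape. Mice with low marker signal have low Bag3 and Hspb1 in all groups (r = 0.90 and 0.87).

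The genes most like Chordc1 over the 14 mice were Bag4 (r = 0.96), Hnrnpc (r = 0.95), Stip1 (r = 0.95), Rexo4 (r = 0.94) and Hspa5 (r = 0.94), where the median over all genes tested was 0.05. Bag4 encodes a nucleotide exchange factor of HSP70, Stip1 the adaptor HOP that hands clients from HSP70 to HSP90, Hspa5 the HSP70 of the endoplasmic reticulum (ER), and Hnrnpc an RNA-binding protein of the nucleus. Among deviations from group means these r were between 0.80 and 0.91.

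Other cytosolic and mitochondrial chaperone genes were taken from lists of HSP70 relatives, J-domain proteins, HSP70 cofactors, HSP90 co-chaperones, small heat shock proteins, heat shock factors, the chaperonin TRiC, mitochondrial chaperones and further heat-induced genes. Of 74 genes listed 70 were tested, and against naive mice 3 rose in susceptible mice and none fell, where 1.45% of all genes were called higher. Fkbp5, an HSP90 co-chaperone that restrains the glucocorticoid receptor and is induced by glucocorticoids, averaged 3.31 in susceptible and 1.93 in naive mice, a difference of 1.38 ± 0.26 (SE; adjusted p = 0.0284, limma). Bag4 differed by 0.56 ± 0.12 (adjusted p = 0.0345) and Hsf2, a heat shock transcription factor, by 0.34 ± 0.08 (adjusted p = 0.0435). The calls of Fkbp5, Bag4 and Hsf2 held in 10, 7 and 2 of the 14 fits that left out 1 mouse, with adjusted p (limma) up to 0.070, 0.075 and 0.097. All 3 calls were lost with no filter on dim probes (adjusted p = 0.0739, 0.0817 and 0.0940) and with slide and brightness together, where Fkbp5 differed by 0.78 (adjusted p = 0.63), Bag4 by 0.37 (adjusted p = 0.61) and Hsf2 by 0.25 (adjusted p = 0.64, limma). With slide as a block 16 of the 70 were higher and 2 lower, against 9.03% and 6.1% of all genes.

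Among HSP90 co-chaperones 1 of 16 tested rose, and the median difference was 0.12; Stip1 differed by 0.35 (adjusted p = 0.0818, limma). All 8 subunits of TRiC, which folds actin and tubulin, had differences above 0 (median 0.24), against 53.8% of all genes, and none passed without a block, with Cct8 at 0.49 (adjusted p = 0.0828) and Cct6a at 0.42 (adjusted p = 0.126). With slide as a block 4 of these 8 were higher, against 9.03% of all genes. Among the other HSP70 relatives none of 7 passed, with Hspa12b at -0.83 (adjusted p = 0.0766) and Hspa2 at 0.33 (adjusted p = 0.102). Among 9 J-domain genes none passed, with Dnajc6, the clathrin-uncoating factor auxilin, at 0.54 (adjusted p = 0.0537) and Dnaja1 at 0.24 (adjusted p = 0.184).

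The small heat shock proteins stood on the side of Hspb1: 1 of 6 tested differences was above 0, the median was -0.21, and none passed, with Hspb2 at -0.92 (adjusted p = 0.151, limma) and Cryab, alpha-B crystallin, at -0.44 (adjusted p = 0.156). None of the 6 mitochondrial chaperones passed, with Dnaja3 at 0.25 (adjusted p = 0.140) and Grpel1 at 0.17 (adjusted p = 0.274). Nor did any of the 6 further heat-induced genes, with Dedd2 at 0.25 (adjusted p = 0.158) and Ubb, a polyubiquitin gene, at 0.21 (adjusted p = 0.212). In resilient mice none of the 70 genes passed by limma against naive mice, 9 had an unadjusted p under 0.05, against 19.6% of all genes, and 4 were higher with slide as a block, against 2.41% of all genes.

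Chaperones of the ER were taken for comparison, since they answer to another stress pathway, the unfolded protein response. In susceptible mice 2 of 11 rose against naive mice, where 1.45% of all genes were called higher. Hspa5, which encodes BiP, rose by 0.61 ± 0.11 (SE, adjusted p = 0.0206, limma) and Creld2, an ER stress gene, by 0.58 ± 0.14 (adjusted p = 0.0439). Of the 11, 5 were higher with slide as a block, against 9.03% of all genes. Without a block 7 of the 11 had an unadjusted p under 0.05 (limma), as did 3377 of 14453 genes. All 11 differences were above 0, as were 53.8% of all genes, with a median of 0.37. The calls of Hspa5 and Creld2 held in 12 and 4 of 14 fits that left out 1 mouse, with adjusted p (limma) up to 0.059 and 0.105. Both were lost with no filter on dim probes (adjusted p = 0.0570 and 0.0944) and with slide and brightness together (0.57 and 0.66, adjusted p = 0.53 each, limma). In resilient mice 9 of 11 differences were above 0, against 53.1% of all genes, and none passed by limma. An unadjusted p under 0.05 was found for 6 of the 11 and for 19.6% of all genes.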

How the data were processed

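Each array held the mPFC RNA of 1 mouse (35 ng, Cy3). Per the file headers, Agilent Feature Extraction 11.0.1.1 made the deposited intensities, which are linear, and its processed intensity has the background already subtracted. A second table from the authors gives log2 values for these arrays, each centred on its 75th percentile, and served as an alternative. Its column medians lay between -3.09 and -2.74.

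Control spots (3671 of 62976) and outlier spots (104 to 184 per array) were removed, replicate spots of a probe were averaged, and the 75th percentile of the array's log2 signals was subtracted. Probes entered the tests when at least 1 group had them well above background on each of its arrays (29825 of 55681 probes; all 12 probes of the set were above background on all 14 arrays). Accessions were matched without versions to a RefSeq table of GRCm38.p6, which named 27509 probes and left 28172 unnamed and out of the gene counts. The brightest probe stood for a gene. Coordinates are those of the RefSeq promoter table, since the headers name the older build mm9.

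Groups were compared in 1 fit of 14 arrays with limma 3.58.1 in R 4.3.3 (lmFit, eBayes), with p-values adjusted by Benjamini-Hochberg over 14453 genes. Tested on simulated data of 14453 genes, the pipeline recovered 32.8%, 71.6% and 97.0% of changes of 0.5, 1 and 2 log2 units for susceptible against naive mice, and 11.9%, 74.6% and 90.9% for resilient against naive mice. The simulated noise was independent between genes and arrays and held no differences of slide, scan day or brightness. Recovery on the real arrays, which have such differences, was not tested. Groups were taken from the labels.

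The members and lists were chosen with earlier results of these data known. Named are all members; of each chaperone list, every gene past the threshold, or else the 2 with the smallest p; and the 5 genes most like a member that passed. Stip1 is also named with its list. Alternatives were other scalings, background corrections, filters, probe summaries, batch terms, variance models, covariates, a replicate block and leaving out each mouse. The fit of each probe on its own, the fits with slide as a block that left out a mouse or held brightness, and the relations to brightness and marker lists were added after the data were seen.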

Additional observations from a re-analysis of the deposited data

How the results depend on the processing

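The directions of Chordc1, Hspa1a, Hsph1, Ahsa1 and Dnajb1 against naive mice held under every alternative run, in both defeated groups. For susceptible against naive mice, 1 of the 9 genes was called, 0 with the array median subtracted, 0 with no filter on dim probes, 0 within slide 1, 2 or 3, 0 in a fit of only the groups compared, 0 with slide and brightness together, 2 after normexp background correction (Ahsa1 and Chordc1), 3 with the replicate block, 4 with scan day as a block and 4 with slide as a block; fits that left out 1 mouse called 0 to 2, and with slide as a block 1 to 5. For resilient against naive mice, 0 were called, 1 with brightness as a covariate (Hspa1a), 2 with slide as a block, 3 with scan day as a block and 3 with the replicate block (Hspa1a, Hsph1 and Chordc1); fits that left out 1 mouse called 0, and with slide as a block 0 to 3. Over all 14453 genes tested, 20 were called for resilient against naive mice, 924 with brightness as a covariate and 567 with slide as a block. Scan day as a block gave 1458 and the replicate block 770. Of the 9 genes, susceptible against resilient mice gave 0 throughout. Slide 1 held 1 naive mouse and slide 2 held 1 resilient mouse, so the fits within those slides assume that a lone mouse varies like the other groups. Quantile normalisation moved the pairs that vary together to 18 of 36.

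Some signs turned, and the cause was not tested. For susceptible against naive mice, Hspa8 (-0.03) was 0.32 with quantile normalisation, 0.30 after normexp and 0.27 as the mean of its probes. Within slides 1 and 2 it was 0.030 and 0.032. It was 0.026 with the replicate block, 0.11 with array weights and 0.094 with brightness as a covariate. Fits that left out a mouse gave -0.086 to 0.052, and -0.100 to -0.014 with slide as a block as well. Hsp90aa1 was -0.088 within slide 2 and -0.012 to 0.127 with a mouse left out, Grpel1 (0.17) was -0.0077 within slide 2 and Ubb (0.21) -0.0041 within slide 3. For resilient against naive mice, Hspa8 (0.08) was -0.079 with slide as a block, -0.076 with scan day and -0.069 within slide 1. It was -0.0082 with the replicate block and -0.025 with slide and brightness. Leaving out a mouse gave 0.022 to 0.150, and -0.132 to -0.0076 with slide as a block as well. Hsp90aa1 was -0.13 within slide 2 and -0.0025 with slide and brightness. Its range was 0.019 to 0.162 with a mouse left out, and -0.051 to 0.086 with slide as a block as well. Bag3 (-0.39) was 0.23 within slide 2 and 0.020 with slide and brightness. With a mouse left out Bag3 was -0.600 to -0.229, and -0.333 to 0.018 with slide as a block as well. Hspb1 (-0.13) was 0.17 with slide as a block, 0.86 within slide 2, 0.018 with the replicate block and 0.35 with slide and brightness. Hspb1 was -0.607 to 0.334 with a mouse left out, and -0.288 to 0.510 with slide as a block as well. For susceptible against resilient mice, Hspa1a was 0.17 within slide 1, and Hsph1 was 0.023 with the array median subtracted. With a mouse left out Hspa1a was -0.203 to 0.051 and Hspb1 -0.674 to 0.266. With slide as a block as well, these ranges were -0.386 to 0.140 and -0.782 to 0.001.

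Over all genes tested, 329 were called for susceptible against naive mice (209 higher, 120 lower), 30 with the array median (27 higher, 3 lower), 0 with no filter, 58 with only the groups compared, 199 with the filter on at least 3 arrays, 546 with the percentile over detected probes, 580 with quantile normalisation, 776 after normexp, 1335 with brightness, 1696 with the replicate block, 2187 with slide and 2462 with scan day as a block, and 0 with slide and brightness. Of 11 pairs of mice with the same replicate number, 8 had deviations correlated above 0.1 (r from -0.38 to 0.71). Several of these pairs also shared a slide, so the values cannot show whether the numbers pair the mice, and this was not tested. Groups of 3 to 6 mice, arrays of unequal brightness and slide positions shared with the groups limit what these arrays can separate.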
